A study of Mus musculus with 44 samples.

Results

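Gel-forming secreted mucins are the large glycoproteins that make up the mucus gel over the stomach and other epithelia. The mouse carries 4 genes of this family in a row on chromosome 7, Muc6, Muc2, Muc5ac and Muc5b, and these were taken as members by name. They are 4 of the 31414 genes obtained by summing the deposited transcript counts of 44 messenger RNA libraries of the gastric corpus. Muc5ac, Muc5b and Muc6, 3 of the 4, held enough counts to be tested among 14893 genes, whereas Muc2 did not. Muc5b did so only through the KO libraries.

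Each gel-forming mucin consists of cysteine-rich ends, through which the chains are linked into polymers, and a central region rich in serine, threonine and proline, on which sugar chains are built. In the normal stomach Muc5ac is the mucin of the surface (pit) mucous cells and Muc6 that of the mucous neck cells and the deeper glands. Muc2 is known as the mucin of intestinal goblet cells, and Muc5b as a mucin of airways and salivary glands. Spasmolytic polypeptide-expressing metaplasia (SPEM) is a change of the corpus glands in which cells at the gland base take on mucous neck cell features, Tff2 and Muc6 among them.

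All mice were on a BalbC background and were sampled at 13 months of age. WT/PEG (11 libraries) were wild type mice given the PEG vehicle, and WT/NTZ (9 libraries) were wild type mice given netazepide (NTZ, labelled yf after its older name), an antagonist of the gastrin receptor. KO/PEG (13 libraries) and KO/NTZ (11 libraries) were mice without the beta subunit of the gastric H+/K+ATPase, the acid pump of parietal cells, given vehicle or NTZ. The methods describe the mice as female. The deletion is in the germline, so it is limited neither to a cell type nor to adult life. The study asked what blocking the gastrin receptor changes in the mucosa of these mice, which have high gastrin because they lack acid. Its methods state fewer KO/PEG mice than there are KO/PEG libraries, and all 13 were used. Their titles carry 13 different numbers, and whether any are repeat libraries of 1 mouse is not stated. The p-values would not take such repeats into account. Each title carries a number, whose meaning is not stated. A pair of WT/PEG titles carry the same number, with the endings 1 and 2, and may therefore be 2 libraries of 1 mouse. They entered as 2 libraries, and summing them into 1 changed no call of a member gene. The number 110 occurs in both a KO/PEG and a KO/NTZ title, and leaving out these libraries changed no call of a member gene. The p-values measure the spread between libraries.

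Total estimated counts lay between 6065084 and 21945124 per library, with group medians between 10738092 and 13045631. Atp4b, the deleted subunit, was between 2140 and 5738 CPM (counts scaled to library size) in WT libraries and between 2.28 and 40.6 CPM in KO libraries, so each library matched its genotype label. The corpus enzymes Pgc (161144 CPM in WT/PEG, mean) and Atp4a (8089 CPM) were abundant, while the antral hormone Gast had a mean of 1.45 CPM and Gkn1, a pit cell product, 39491 CPM. Markers of squamous forestomach were carried unevenly, with a median summed level of 5.44 CPM in WT/PEG and 1030 CPM in WT/NTZ, against 26.5 CPM in KO/PEG and 98.9 CPM in KO/NTZ. The mitochondrial share of counts had group medians of 9.57% for WT/PEG, 9.42% for WT/NTZ, 4.86% for KO/PEG and 3.82% for KO/NTZ.

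The coding sequences of Muc6, Muc5ac and Muc5b were searched for the stretch richest in serine and threonine codons. Other genes were not searched for comparison. The windows below are, for each gene, the 150 bases of coding sequence within a single exon that hold the most serine and threonine codons, which are written in capitals. They are read 5′ to 3′ on the strand of the gene from the GENCODE vM21 transcripts (GRCm38), and are shown because the longest stretch in which the transcripts of Muc6, and those of Muc5ac, differ lies in this repeat region. The Muc6 window is at chr7:141636761-141636910 (minus strand, exon 32 of 34 of ENSMUST00000062451), the Muc5ac window at chr7:141808690-141808839 (plus strand, exon 31 of 49 of ENSMUST00000155534) and the Muc5b window at chr7:141861203-141861352 (plus strand, exon 31 of 49 of ENSMUST00000165147).
Muc6: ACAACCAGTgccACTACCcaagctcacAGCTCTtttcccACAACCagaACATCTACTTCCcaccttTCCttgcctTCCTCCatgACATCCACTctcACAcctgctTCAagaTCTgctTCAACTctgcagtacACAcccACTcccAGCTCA
Muc5ac: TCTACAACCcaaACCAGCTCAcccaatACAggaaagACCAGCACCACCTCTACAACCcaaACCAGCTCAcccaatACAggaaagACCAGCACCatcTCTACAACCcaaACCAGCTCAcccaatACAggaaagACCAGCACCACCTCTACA
Muc5b: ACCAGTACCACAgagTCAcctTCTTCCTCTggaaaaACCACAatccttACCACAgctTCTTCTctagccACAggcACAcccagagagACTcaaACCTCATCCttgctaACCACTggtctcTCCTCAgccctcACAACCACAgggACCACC
Of the 50 codons in each window, 28 in Muc6, 34 in Muc5ac and 29 in Muc5b encode serine or threonine. Over the whole coding sequence these codons make up 31.8% in Muc6, 23.5% in Muc5ac and 26.2% in Muc5b.

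Muc5ac was lower in KO mice. Its level was between 2143 and 5860 CPM in WT/PEG (median 5054), between 2242 and 9455 CPM in WT/NTZ (median 3382), between 135 and 4399 CPM in KO/PEG (median 1086) and between 216 and 3475 CPM in KO/NTZ (median 936). Of the 13 KO/PEG libraries, 11 lay below every WT/PEG library, and the 2 others lay within the WT/PEG range, all 13 being below the WT/PEG median. The difference between KO/PEG and WT/PEG was -1.76 on the log2 scale (SE 0.40, edgeR quasi-likelihood test, adjusted p = 0.000156), a 3.39-fold lower level. In bulk tissue, fewer pit cells and less Muc5ac RNA per cell cannot be told apart.

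Muc6 rose in KO mice. It lay between 62.9 and 330 CPM in WT/PEG (median 231), between 112 and 427 CPM in WT/NTZ (median 169), between 180 and 7654 CPM in KO/PEG (median 2242) and between 1794 and 7807 CPM in KO/NTZ (median 3770). The KO/PEG libraries were the most scattered, with a coefficient of variation of 84.8% against 46.7% in WT/PEG, and 12 of the 13 lay above every WT/PEG library. All 11 KO/NTZ libraries lay above every WT library of either treatment. How many other genes separate in this way was not counted, but between KO/PEG and WT/PEG 14.3% of genes tested did not overlap. KO/PEG exceeded WT/PEG by 3.87 on the log2 scale (SE 0.46, edgeR, adjusted p = 1.45e-09), or 14.6-fold. The size depended on the libraries: all WT/PEG libraries have title numbers of 100 or above, and the difference was 3.03 with only KO libraries numbered below 100 and 4.35 with only libraries numbered 100 or above (edgeR, adjusted p = 1.38e-06 and 1.54e-09).

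Muc5b, which was nearly absent from the WT corpus, rose by a similar factor from a far lower base. It was between 0.0973 and 1.36 CPM in WT/PEG (median 0.388), between 0.246 and 0.973 CPM in WT/NTZ (median 0.512), between 1.6 and 19.5 CPM in KO/PEG (median 8.45) and between 0.848 and 3.72 CPM in KO/NTZ (median 1.58). All 13 KO/PEG libraries lay above all 11 WT/PEG libraries. The difference was 3.98 on the log2 scale (SE 0.39, edgeR, adjusted p = 1.7e-11), or 15.8-fold. These values rest on few reads in WT mice, where a library held 1 to 16 Muc5b counts and 4 of the 20 libraries held 3 or fewer, while KO/PEG libraries held 25 to 393.

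Muc2, the intestinal mucin, was barely detected in any group. The libraries held between 1 and 6 counts in WT/PEG, between 1 and 7 in WT/NTZ, between 0 and 15 in KO/PEG and between 0 and 24 in KO/NTZ, with median levels of 0.323, 0.269, 0.292 and 0.39 CPM in that order. A count of 3 or fewer was found in 6 of 11, 5 of 9, 6 of 13 and 4 of 11 libraries. The groups overlapped throughout, and 2 KO/PEG and 2 KO/NTZ libraries held no Muc2 count, which allows levels of up to 0.23 to 0.495 CPM there (3 counts in each of these libraries, counting error only). Muc2 did not pass the filter on low counts. In a fit without that filter, KO/PEG differed from WT/PEG by 0.18 on the log2 scale (SE 0.52, edgeR, adjusted p = 0.819), so no difference was detectable at this depth. GENCODE vM21 holds Muc2 only as 8 separate partial transcripts, of which 4 had any count.

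**Figure D1:**
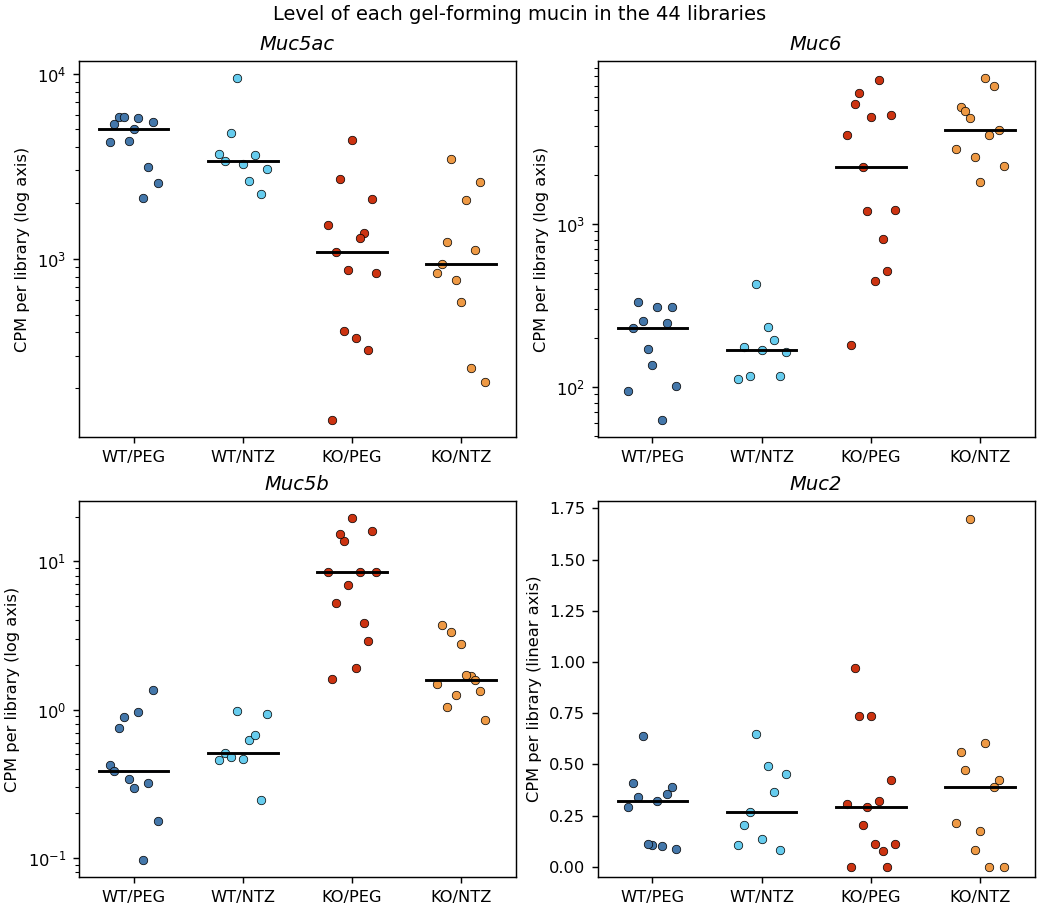
Level in CPM of the 4 mucins in each library, with 1 point per library, a line at the group median, log axes for Muc5ac, Muc6 and Muc5b and a linear axis for Muc2. KO libraries were lower for Muc5ac and higher for Muc6 and Muc5b, KO/NTZ libraries lay at a median of 1.58 CPM for Muc5b against 8.45 CPM in KO/PEG, and Muc2 reached at most 1.7 CPM.

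These 3 calls have to be read against how much of the transcriptome differed between the genotypes. Between KO/PEG and WT/PEG, 74.7% of all genes tested passed the threshold of adjusted p under 0.05, 37.5% as higher and 37.2% as lower, so a call alone sets these 3 members little apart from the other genes. The CPM values of KO/PEG and WT/PEG did not overlap for 14.3% of genes tested, and of the members this held for Muc5b, which was tested only because of its KO levels.

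The change in proportion between Muc5ac and Muc6 is best seen on a scale that takes length into account. In TPM, which divide counts by transcript length and so allow genes to be compared, Muc5ac had a mean of 510 TPM in WT/PEG (SD 178), rank 134 among 21362 genes above 0, and 184 TPM in KO/PEG (SD 165), rank 687. Muc6 went the other way, from 32 TPM in WT/PEG (SD 16.1, rank 2400) to 642 TPM in KO/PEG (SD 537, rank 242) and 871 TPM in KO/NTZ (SD 381, rank 174). Muc5b remained a minor transcript, at 0.0409 TPM in WT/PEG and 0.791 TPM in KO/PEG, and Muc2 was at 0.149 and 0.186 TPM.

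Muc5ac therefore made up 94.4% ± 1.22 (SD, n = 11) of the summed mucin TPM in WT/PEG and 93.4% ± 1.97 (n = 9) in WT/NTZ. In KO/PEG it made up 31.3% ± 29.8 (n = 13), with libraries from 1.25 to 87%, and in KO/NTZ 17.1% ± 14.7 (n = 11). In TPM, Muc6 exceeded Muc5ac in none of the 20 WT libraries, in 10 of 13 KO/PEG libraries and in 11 of 11 KO/NTZ libraries. This scale rests on how the counts were placed among transcripts of different length. In counts, which are not scaled by length, Muc5ac exceeded Muc6 in the KO/NTZ libraries 25 (32945 against 28879) and 36 (49182 against 36491). The 3 KO/PEG libraries that kept more Muc5ac than Muc6 lay between 299 and 610 TPM for Muc5ac and between 42.8 and 181 TPM for Muc6. The summed level of the 4 mucins was 542 ± 193 TPM for WT/PEG, 480 ± 222 TPM for WT/NTZ, 827 ± 484 TPM for KO/PEG and 1032 ± 350 TPM for KO/NTZ, and the KO/PEG range of 192 to 1661 TPM enclosed that of WT/PEG.

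**Figure D2:**
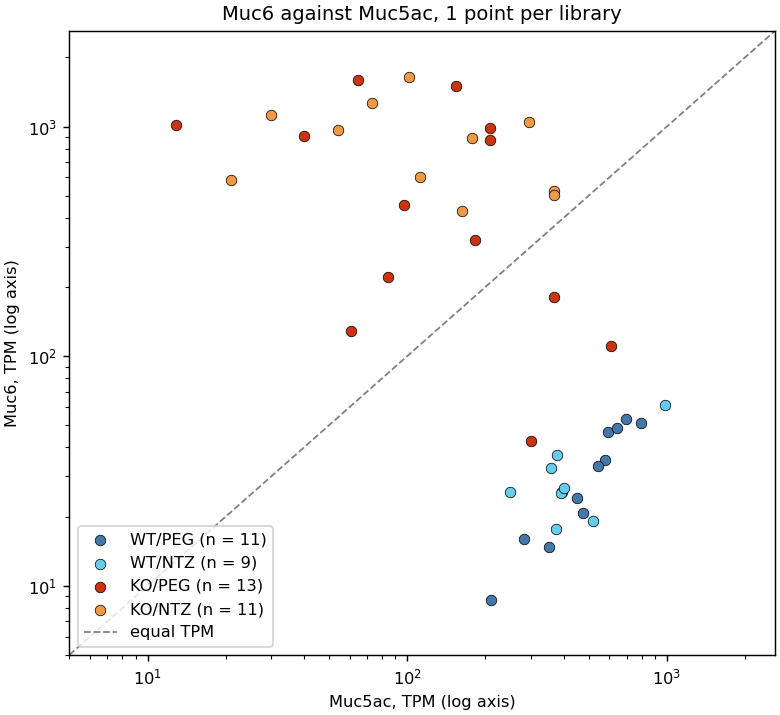
Muc6 against Muc5ac in TPM, both on log axes, with 1 point per library coloured by group and a dashed line where both are equal. All 20 WT libraries lie below the line and all 11 KO/NTZ libraries above it, with 10 of the 13 KO/PEG libraries above it.

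Muc5ac and Muc6 were then compared library by library within each genotype. After subtraction of the group means, log2 CPM of Muc5ac and Muc6 were correlated over the 20 WT libraries with r = 0.81 (permutation p = 0.00013, adjusted over 6 relations 0.00078) and rho = 0.78 (permutation p = 0.00012, adjusted 0.00072). Without the 2 libraries farthest in Muc5ac r was 0.68. Over the 24 KO libraries r was -0.41 (permutation p = 0.061, adjusted 0.18) and rho -0.43 (permutation p = 0.046, adjusted 0.14), and without the 2 farthest libraries r was -0.34, so no relation passed the threshold in KO mice. Whether the genotypes differ in this relation was not tested. The remaining 4 relations, of Muc5b with Muc5ac and with Muc6 in each genotype, had r between -0.36 and -0.16 and adjusted permutation p between 0.29 and 0.55.

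The next question was what NTZ changed. Muc5b fell in KO mice given NTZ, by 2.23 on the log2 scale (SE 0.35, edgeR, adjusted p = 5.12e-05), a 4.69-fold lower level than in KO/PEG. All 11 KO/NTZ libraries lay below the KO/PEG median and 6 lay below every KO/PEG library, with counts of 12 to 43 per library. In this comparison 5.57% of all genes tested were called and 2.60% were lower, and 0.0403% had CPM values that did not overlap between the groups, no member among them. Of the 3 members tested, Muc5b was the 1 called.

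Muc5b in KO/NTZ remained above WT, by 1.58 against WT/NTZ (SE 0.42, edgeR, adjusted p = 0.00104) and by 1.75 against WT/PEG (SE 0.40, edgeR, adjusted p = 0.000142) on the log2 scale. Of the 11 KO/NTZ libraries, 10 lay above every WT/NTZ library and 7 above every WT/PEG library. In WT mice NTZ gave a log2 difference of 0.17 for Muc5b (SE 0.45, edgeR, adjusted p = 0.965). The NTZ effect in KO minus that in WT was -2.40 on the log2 scale (SE 0.57, edgeR, adjusted p = 0.0254), a contrast in which 0.953% of genes were called. With other tools, scalings and subsets its adjusted p was between 0.00475 and 0.0418. With single libraries left out it was between 0.0137 and 0.0672, and the call was lost without the WT/NTZ library with the highest Muc5b level (16 counts, 0.973 CPM), at -2.27 (adjusted p = 0.0672 in edgeR).

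Several values moved with Muc5b between KO/PEG and KO/NTZ, where 5.57% of all genes were called. The immune marker Lyz2 fell by 0.78 on the log2 scale in KO/NTZ (SE 0.23, edgeR, adjusted p = 0.0312), 1 of 7 immune markers tested to be called, and the summed immune markers ranged from 298 to 1060 CPM in KO/PEG (median 523) and from 256 to 527 CPM in KO/NTZ (median 432). Of 7 muscle and stroma markers, Des and Ckm, proteins of muscle, were higher by 0.89 and 1.11, and the collagen gene Col1a1 was lower by a log2 difference of -0.62 (edgeR, adjusted p between 0.00409 and 0.00488). Their summed level ranged from 627 to 1537 CPM in KO/PEG (median 961) and from 973 to 1806 CPM in KO/NTZ (median 1380). The potassium channel gene Kcnq1, a parietal cell marker, differed by -0.57 and Apoa4, an intestinal apolipoprotein gene, by 0.60 (edgeR, adjusted p = 0.00189 and 0.0368). Of 10 pancreas, liver and salivary markers 6 were tested and none was called in edgeR, with the salivary gene Bpifa2 listed at 0 in all 44 libraries and Amy1 at means of 2.88 CPM in KO/PEG and 2.47 CPM in KO/NTZ. The part of these cell types in the Muc5b result was not tested. Title numbers below 100 were held by 10 of 11 KO/NTZ libraries and 6 of 13 KO/PEG libraries. Among KO libraries numbered below 100, Muc5b in KO/NTZ against KO/PEG differed by -2.62.

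Muc5ac and Muc6 passed no threshold between KO/NTZ and KO/PEG. For Muc5ac the log2 difference was -0.06 with a 95% interval from -0.84 to 0.71 (edgeR, adjusted p = 0.933), and 6 of 11 KO/NTZ libraries lay below the KO/PEG median. For Muc6 it was 0.49 with an interval from -0.29 to 1.27 (edgeR, adjusted p = 0.423), and 10 of 11 KO/NTZ libraries lay above the KO/PEG median. The Muc6 difference depended on which libraries entered. Within KO/PEG the 6 libraries numbered below 100 had a lower Muc6 level than the 7 others, by a log2 difference of -2.01 (exact permutation test, two-sided p = 0.0315, adjusted over 6 such tests 0.189), and with only KO libraries numbered below 100 the difference between KO/NTZ and KO/PEG was 1.38 (edgeR, adjusted p = 0.0667).

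In WT mice NTZ left the mucins without a call. The log2 differences between WT/NTZ and WT/PEG were -0.18 for Muc5ac (95% interval -1.03 to 0.68), 0.17 for Muc5b (-0.71 to 1.05) and -0.11 for Muc6 (-0.97 to 0.75), in edgeR with adjusted p of 0.963, 0.965 and 0.978. In this comparison 1.03% of genes tested were called. For Muc2 the fit without a filter gave 0.10 in WT mice and 0.45 in KO mice, with adjusted p in edgeR of 1 and 0.612. The intervals include changes of more than 1.5-fold in either direction. The squamous markers given above were higher in WT/NTZ libraries, with 0 of the 10 called and a median log2 difference of 2.61, and their part in these values was not tested.

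Under NTZ the genotypes differed in the same directions as under vehicle for all 3 members tested. KO/NTZ differed from WT/NTZ by -1.65 for Muc5ac (SE 0.44, edgeR, adjusted p = 0.000982) and by 4.47 for Muc6 (SE 0.52, edgeR, adjusted p = 1.7e-09), a 22.1-fold higher level, in a comparison in which 72.4% of genes tested were called. Against WT/PEG, with 76.9% called, the differences were -1.82 for Muc5ac and 4.36 for Muc6. These comparisons share groups with each other. Between KO/NTZ and WT/NTZ 8 of the 10 squamous markers were also called, all as lower, with a median log2 difference of -3.04. The part of squamous tissue in the mucin values was not tested. The NTZ effect in KO minus that in WT was 0.11 for Muc5ac (edgeR, adjusted p = 0.969) and 0.60 for Muc6 (edgeR, adjusted p = 0.776).

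**Figure D3:**
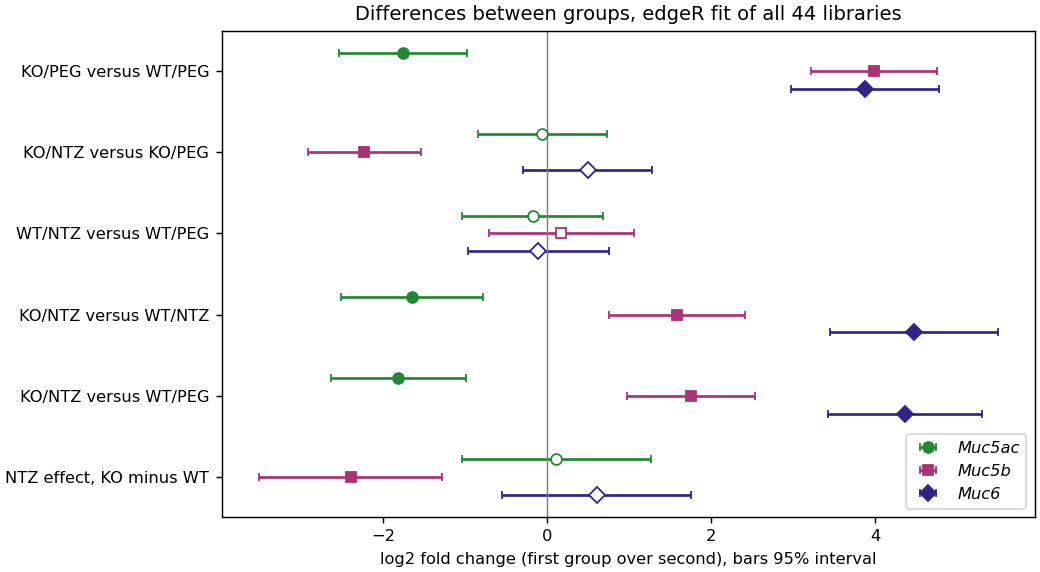
Log2 fold change of Muc5ac, Muc5b and Muc6 in each comparison, with 95% intervals as bars, filled symbols where the adjusted p was under 0.05 and open symbols where it was not. Muc5b was the member with a filled symbol between KO/NTZ and KO/PEG (-2.23) and in the difference of the NTZ effects (-2.40).

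The single transcripts showed where the Muc6 counts were placed. Muc6 is annotated on the minus strand at chr7:141633456-141655319 with 3 protein-coding transcripts. The longer ENSMUST00000062451 (8650 bases, 2853 codons) holds the repeat exon shown above, while the shorter ENSMUST00000189314 (5087 bases, 1437 codons) lacks 3497 coding bases at chr7:141636378-141639874 and 3 shorter coding stretches of 267, 192 and 123 bases, and has 516 further bases at its 3′ end that are not coding. Serine and threonine codons make up 18.5% of the coding sequence of the shorter transcript against 31.8% of the longer. The junction that skips the repeat exon joins base 141640337 to base 141636377, and the 30 bases across it occur in 1 transcript of the annotation, with the part after the junction in capitals.
Muc6 junction of ENSMUST00000189314: tggcccaccaacggaCCGCAGCACTTCTCC

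The shorter Muc6 transcript rose more than the longer ones. It was between 22.4 and 106 CPM in WT/PEG (median 48.6), at a median of 59.3 CPM in WT/NTZ, between 134 and 5921 CPM in KO/PEG (median 1793) and between 1288 and 6041 CPM in KO/NTZ (median 3063). No KO library overlapped the WT libraries. How many other transcripts separate in this way was not counted, but between KO/PEG and WT/PEG 14.3% of genes tested did not overlap. Between KO/PEG and WT/PEG its log2 difference was 5.24 (SE 0.51, edgeR, adjusted p = 5.48e-11), against 2.38 for ENSMUST00000062451 (SE 0.46, edgeR, adjusted p = 2.82e-05) and 1.04 for ENSMUST00000190907 (SE 0.72, edgeR, adjusted p = 0.224). In this comparison 53.5% of 30782 transcripts tested were called, and of the 6 member transcripts tested 4 were.

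As a share of all Muc6 counts the shorter transcript made up 27.8% ± 6.81 (SD, n = 11) in WT/PEG and 34.7% ± 9.11 (n = 9) in WT/NTZ, but 71.6% ± 12 (n = 13) in KO/PEG and 80.6% ± 8.03 (n = 11) in KO/NTZ. All 13 KO/PEG libraries lay above all 11 WT/PEG libraries, and all 11 KO/NTZ libraries above all 9 WT/NTZ libraries. The difference was 43.8 percentage points between KO/PEG and WT/PEG (permutation test, two-sided p = 2e-05, adjusted over 8 tests 8e-05, at the smallest p that these permutations can give) and 45.8 points between KO/NTZ and WT/NTZ (exact permutation test, p = 1.2e-05, adjusted 8e-05). After scaling by length the shares were 39.3% in WT/PEG and 80.7% in KO/PEG. With NTZ the share was 8.92 points higher in KO mice (permutation p = 0.048, adjusted 0.094) and 6.91 points higher in WT mice (exact permutation test, p = 0.07, adjusted 0.094), neither of which passed after adjustment. The authors' program assigns reads from shared exons by estimation, so these shares are less certain than the gene sum, and the part of the 516 further 3′ bases in them was not tested.

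Muc5ac, on the plus strand at chr7:141788972-141819231, has 3 annotated transcripts, of which ENSMUST00000155534 (10752 bases) holds 2109 coding bases of the repeat region at chr7:141807713-141809821 that ENSMUST00000163321 (8505 bases) lacks. The third, ENSMUST00000041924, had no count in any library. ENSMUST00000155534 fell by 2.39 on the log2 scale in KO/PEG (SE 0.38, edgeR, adjusted p = 1.39e-06), while ENSMUST00000163321 differed by -0.86 (SE 0.57, edgeR, adjusted p = 0.205). The share of ENSMUST00000155534 in Muc5ac counts was 73.4% ± 6.05 (SD, n = 11) for WT/PEG and 67.6% ± 7.25 (n = 9) for WT/NTZ, and 57.5% ± 14.8 (n = 13) for KO/PEG and 62.2% ± 20.3 (n = 11) for KO/NTZ. KO/PEG was 15.9 points below WT/PEG (difference -15.9, permutation p = 0.0039, adjusted 0.011), with 9 of 13 libraries below all WT/PEG libraries and 1 above all of them. Between KO/NTZ and WT/NTZ the difference was -5.4 points (exact permutation test, p = 0.46, adjusted 0.51).

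Muc5b has 1 annotated transcript, ENSMUST00000165147 (14964 bases), whose log2 difference was 3.93 between KO/PEG and WT/PEG (edgeR, adjusted p = 3.65e-10) and -2.24 between KO/NTZ and KO/PEG (edgeR, adjusted p = 0.000457). It was the 1 member transcript of 6 called between the KO groups, where 2.56% of transcripts tested were called. Between KO/NTZ and WT/NTZ, with 56.8% of transcripts called, 5 of 6 member transcripts were called. The exception was ENSMUST00000163321 of Muc5ac, at -1.27 (SE 0.63, edgeR, adjusted p = 0.0809).

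**Figure D4:**
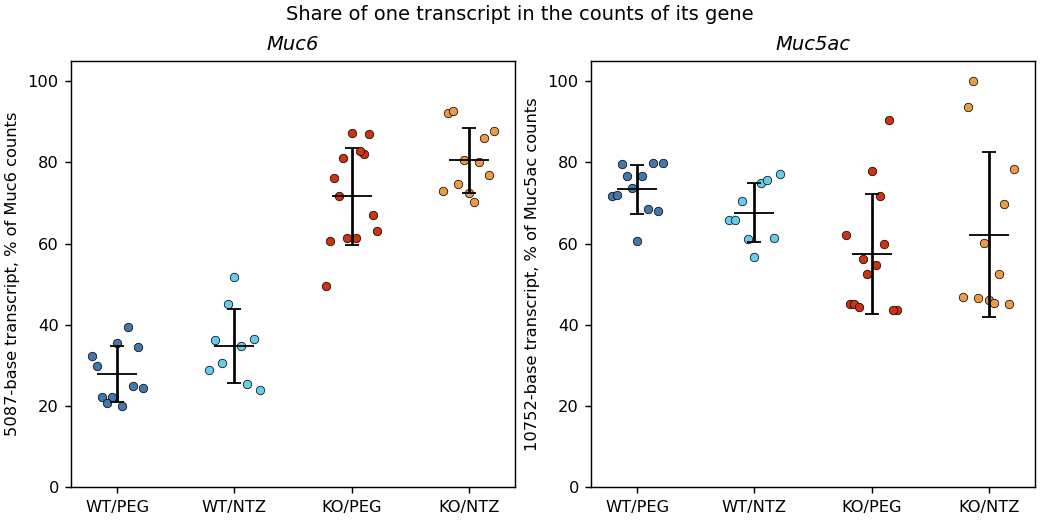
Share, in percent of the counts of the gene, of the 5087-base transcript of Muc6 (left) and of the 10752-base transcript of Muc5ac (right), with 1 point per library and bars for mean ± SD. For Muc6 the KO libraries lie between 49.5 and 92.8% and the WT libraries between 19.9 and 51.8%, while for Muc5ac the groups overlap.

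The 4 genes lie next to each other, and the genes around them were read from the same fit. Muc6 is followed by Muc2 (chr7:141690340-141754693, plus strand), Muc5ac and Muc5b (chr7:141839070-141873084, plus strand), and no annotated gene overlaps any of them. Within 100 kb on either side, Chid1 was higher in KO/PEG than in WT/PEG by 0.80 (log2 scale, edgeR, adjusted p = 4.31e-05). The 3 other protein-coding neighbours were lower, with log2 differences of -0.22 for Ap2a2, -0.23 for Tollip and -1.41 for Brsk2 (edgeR, adjusted p = 0.00113, 0.000727 and 0.000152). None of the 4 neighbours was called between KO/NTZ and KO/PEG, where their log2 differences lay between -0.01 and 0.30.

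Muc6 and Muc2 are transcribed away from each other, and RefSeq (GRCm38.p6) gives a promoter window for both, 2 of the 4 members. Their 250 bases before the RefSeq start are shown because one gene rose 14.6-fold and the other had at most 24 counts in a library. Capitals mark TATAA on the strand of the gene and GATAA on either strand, the core bound by GATA factors, 2 of which (Gata4 and Gata6) are described below. The Muc6 window is chr7:141655394-141655643 (minus strand) and the Muc2 window chr7:141690090-141690339 (plus strand).
Muc6 promoter: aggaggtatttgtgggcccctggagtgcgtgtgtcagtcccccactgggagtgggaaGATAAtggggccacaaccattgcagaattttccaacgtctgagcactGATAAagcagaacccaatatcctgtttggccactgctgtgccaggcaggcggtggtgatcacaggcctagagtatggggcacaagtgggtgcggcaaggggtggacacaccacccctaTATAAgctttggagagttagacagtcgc
Muc2 promoter: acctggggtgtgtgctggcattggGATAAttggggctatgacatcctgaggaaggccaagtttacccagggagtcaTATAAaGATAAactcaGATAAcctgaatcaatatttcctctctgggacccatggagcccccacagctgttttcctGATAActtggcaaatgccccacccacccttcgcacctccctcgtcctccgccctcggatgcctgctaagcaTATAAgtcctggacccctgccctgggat
Both windows hold TATAA starting 28 bases before the RefSeq start, and Muc2 holds a second match further up. For Muc6 the GENCODE start, at base 141655319, lies beyond the end of the window, so TATAA is farther from it. For Muc2 the window ends next to the GENCODE start at base 141690340. Muc6 has 2 matches to GATAA and Muc2 has 4, and no match overlaps another. Among 32851 promoter windows of this length, TATAA is held by 16% and GATAA by 22.6%. The core of KLF binding sites, CACCC on either strand, was found 3 times in each window and in 52% of all windows, and TGTTTAC, a forkhead core searched on both strands, in neither window and in 3.17% of all windows.

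Of 15 genes that fold mucins, pack them or act in the mucus gel, 14 passed the filter. A gene of this list can pass that filter through its KO levels, and Zg16 had means of 0.172 CPM in WT/PEG and 1.5 CPM in KO/PEG. How many rose is therefore not counted here. In KO/PEG against WT/PEG 3 of the 14 were lower, beside 37.2% of all genes tested. Tff2, the trefoil peptide secreted with Muc6, rose by 3.75 (SE 0.42, from a mean of 860 to 11536 CPM). Clca1, a protease of intestinal mucus, rose by 6.62 (from 11 to 1099 CPM) and Fcgbp, a large protein of goblet cell mucus, by 3.83. Bpifb1, a secreted protein of mucous epithelia, rose 31.9-fold (edgeR, adjusted p between 3.09e-12 and 7.76e-10 for these 4). Tff1, the trefoil peptide of pit cells that is secreted with Muc5ac, was at 19519 and 19577 CPM, a log2 difference of 0.00 (adjusted p = 0.987). Between KO/NTZ and KO/PEG none of the 14 was called in edgeR, with a median of 0.24.

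The enzymes of O-glycan synthesis, which build the sugar chains of mucins, were called about as often as genes in general. Of 21 tested (of 23 listed), 8 were higher, 8 lower and 5 not called in KO/PEG, with a median of -0.07, beside 74.7% of all genes called. B4galnt3 and B4galnt2, which add N-acetylgalactosamine to chain ends, fell by 3.79 and by 3.25 on the log2 scale, while the chain-starting enzymes Galnt6 and Galnt12 rose by 1.70 and 0.71 (edgeR, adjusted p between 5.68e-13 and 4.56e-07). St3gal1, a sialyltransferase, was the 1 of 21 called between the KO groups, beside 5.57% of all genes, and was higher by 0.58 in KO/NTZ (SE 0.16, edgeR, adjusted p = 0.021).

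Of 17 transcription factors of mucous lineages 14 were tested, and 6 were higher, 4 lower and 4 not called in KO/PEG, a share of calls near the 74.7% of all genes. Spdef, a factor of goblet and mucous cell maturation, rose by 2.88 and Creb3l4, of the CREB3 family, by 1.57. Gata6 and Foxa2, factors of gastric and gut epithelium, fell by 1.30 and by 1.20 (edgeR, adjusted p between 5.48e-10 and 7.47e-09 for these 4), and Gata4 fell by 0.44 (edgeR, adjusted p = 0.000124). None of the 14 was called between KO/NTZ and KO/PEG.

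The cell type lists stood beside the mucins as follows. Among the 10 mucous neck cell and SPEM markers, Gkn3 (7.43), Wfdc2 (5.60), Muc4 (5.40) and Clu (3.45) rose in KO/PEG (log2 differences, edgeR, adjusted p between 4.7e-18 and 3.91e-12). Since a gene of this list can pass the filter on low counts through its KO levels, how many rose is not counted here. Aqp5, for example, had means of 0.522 CPM in WT/PEG and 73.2 CPM in KO/PEG. Of 10 pit cell markers 5 fell, among them Gkn1 and Gkn2, gastrokines of the surface epithelium, at -1.31 each, and 2 rose, Aqp5 (7.01, also a neck cell and SPEM gene) and the membrane mucin Muc1 (1.15). With 3 not called, the share of calls was near the 74.7% of all genes. The summed pit markers had medians of 102468 CPM in WT/PEG and 50837 CPM in KO/PEG and the summed neck and SPEM markers 2211 and 28829 CPM.

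Immune and muscle markers also moved between the genotypes, in a comparison where 74.7% of all genes were called, 37.5% as higher and 37.2% as lower. A call alone therefore sets a marker little apart from other genes. Cd79a of B cells rose by 3.73 on the log2 scale in KO/PEG and the mast cell protease Mcpt1 by 3.71. Jchain of plasma cells rose by 3.47 and Csf1r of macrophages by 0.85 (edgeR, adjusted p between 1.4e-10 and 1.04e-05 for these 4). Ptprc (0.26) and Lyz2 (0.46) were not called (edgeR, adjusted p = 0.558 and 0.0619). An immune marker can pass the filter on low counts through its KO levels. Cd79a had means of 0.82 CPM in WT/PEG and 11.3 CPM in KO/PEG, so how many of the 7 tested rose is not counted here. The summed immune markers lay between 81.9 and 243 CPM in WT/PEG and between 298 and 1060 CPM in KO/PEG. Of 7 muscle and stroma markers 3 fell, among them the smooth muscle myosin gene Myh11 (-1.66, edgeR, adjusted p = 4.25e-07), and 1 rose, with summed medians of 1605 and 961 CPM. Their part in the mucin values was not tested.

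Of 12 intestinal markers 7 passed the filter on low counts, and since a gene can pass through its KO levels (Zg16 had means of 0.172 CPM in WT/PEG and 1.5 CPM in KO/PEG), how many of them rose is not counted here. Spink4, a goblet cell peptide, rose by 5.08 on the log2 scale and Vil1, of the brush border, by 2.80 (edgeR, adjusted p = 1.53e-14 and 9.02e-13). Among markers that were not tested, the absorptive cell enzymes Alpi and Sis had means of 0.451 and 0.136 CPM in WT/PEG and of 0.288 and 0.0111 CPM in KO/PEG. The factors that define intestinal epithelium were at or near 0 in all groups, with group means between 0.0147 and 0.0553 CPM for Cdx1, between 0.0049 (WT/PEG) and 0.0417 CPM (KO/PEG) for Cdx2 and between 0 and 0.00493 CPM for Atoh1. Of 8 parietal and chief cell markers tested 6 were lower, beside 37.2% of all genes. Among them were the deleted Atp4b (-9.17), whose fall the genotype fixes, Slc26a7 (-3.50) and Pgc (-3.93), while the pepsinogen gene Pga5 rose by 2.46 (edgeR, adjusted p between 5.61e-23 and 1.68e-06 for these 4). Smgc and Prol1, further secreted mucin-type genes that were listed, had no count in any library. Between KO/NTZ and KO/PEG none of the pit, neck or intestinal markers was called in edgeR, with medians of 0.06 for the pit list and 0.19 for the neck list.

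**Figure D5:**
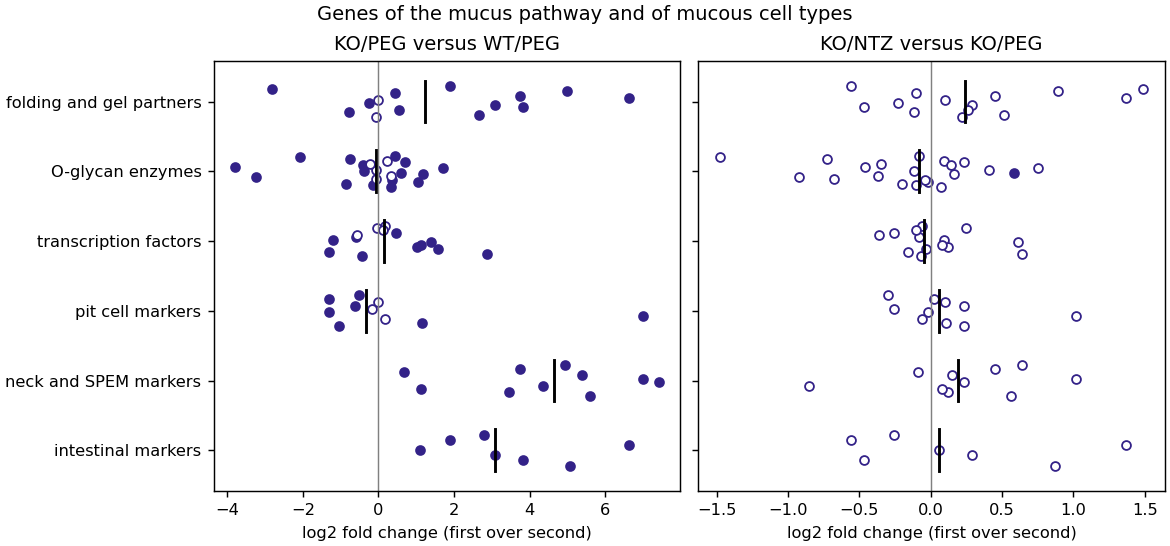
Log2 fold change of each tested gene in 6 lists, KO/PEG against WT/PEG on the left and KO/NTZ against KO/PEG on the right with a different axis range, with filled points where the adjusted p was under 0.05 and a line at the median of the list. On the left, some genes of the folding and gel, neck and SPEM, and intestinal lists could pass the filter on low counts through their KO levels. On the right, 1 gene, St3gal1, is filled.

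The genes whose levels followed each mucin most closely across the 24 KO libraries differed between members. The measure was Pearson's r of log2 CPM after the group means were subtracted, given as a description over libraries that also differ in depth and tissue makeup. Muc6 was followed by Prom2 (r = 0.96), Slc12a8 (0.94), Sdk2 (0.94), Gcgr (0.93) and Gne (0.93), the last an enzyme of sialic acid synthesis, and with Tff2 r was 0.88. Muc5ac was followed by Ces2a (0.92), Gkn2 (0.91), Aadac (0.91), Rep15 (0.91) and Ldhd (0.91). Of Muc6, 91 genes were above 0.8 and of Muc5ac 32. These relations were weaker in the 20 WT libraries. There the 5 genes named had r between 0.05 and 0.55 with Muc6 and between -0.02 and 0.77 with Muc5ac, and Tff2 had -0.19 with Muc6.

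The genes nearest to Muc5b were less close, namely Hk2 (r = 0.69), Slc16a6 (0.67), Rdh10 (0.67), Mmp12 (0.66) and Reg3g (0.66), and none was above 0.8. Muc5b counts are low, and correlations of this size in low counts are weak. Of these, Reg3g, a secreted antibacterial lectin, Mmp12, a macrophage metalloelastase, and Rdh10, a retinol dehydrogenase, were lower in KO/NTZ than in KO/PEG, by log2 differences of -2.12, -1.33 and -0.50 (edgeR, adjusted p = 0.00648, 0.000283 and 0.0137), and Hk2 and Slc16a6 were not called. In the 20 WT libraries the same genes had r between -0.26 and 0.43 with Muc5b.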

How the data were processed

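Messenger RNA of the gastric corpus was sequenced as single reads from stranded poly(A) libraries. Per the labels, the authors estimated with kallisto 0.42.4 against GRCm38 the count of each of 94080 transcripts in each of 44 libraries and deposited these estimated counts without normalization. The annotation release they used is not given in the sources used here. Their Sleuth test needs resampled estimates that were not used here.

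Of the transcripts, 92284 were matched to GENCODE vM21 and summed to 31414 genes. The 1796 unmatched ones held 0.351 to 1.33% of a library's counts. Sums were rounded and filtered with filterByExpr in edgeR 4.0.16 (minimum count 10, minimum total 15), which left 14893 genes and 30782 transcripts. Libraries were normalized by TMM and fitted in R 4.3.3 with 1 mean per group, all 44 libraries sharing 1 estimate of the spread. Contrasts were tested by the quasi-likelihood test with Benjamini-Hochberg adjustment over all features tested, threshold 0.05. CPM are TMM-scaled, log2 CPM have a prior count of 2, and TPM used annotated transcript lengths. Shares of transcripts were compared by two-sided permutation, exact where a group had fewer than 10 libraries and with 100000 draws otherwise, and 95% intervals are 1.96 SE on each side. Counting limits take 3 counts as a library's floor and leave out amplification, because the libraries carried no molecular identifiers and 1 molecule can give several reads, so that they cover counting error alone.

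The members, lists and comparisons were chosen with earlier results of these data known. The genes named are the 4 mucins, up to 4 called genes per list and comparison with the smallest p, the first 2 markers of a cell type list, protein-coding genes within 100 kb, and the 5 genes with the highest r to a member. Of the first 2 markers, Krt5, Krt14 and Pdx1, not given above, were not called between KO/PEG and WT/PEG. Their log2 differences were 0.03, -0.03 and 0.78 (edgeR, adjusted p = 0.983, 0.981 and 0.242). Tff3 (1.90), Cd3e (1.34), Cela1 (2.07) and Cela2a (-0.92) were called (edgeR, adjusted p between 8.72e-11 and 0.0207). Gata4, Tff1, Tff2 beside Muc6, Cdx1, Cdx2, Atoh1, Muc1, Alpi, Sis, Zg16, Amy1, Atp4b and Pga5 among the markers, and Bpifa2 were also named, some after their values were seen. Sequences came from RefSeq promoters and GENCODE vM21 transcripts. Alternatives were other normalizations (RLE, upper quartile), no filter, DESeq2 1.42.0, limma-trend (limma 3.58.1), subsets of libraries and each library left out. The edgeR, limma and DESeq2 steps were tested on simulated data. The pair of WT/PEG libraries with the number 172 differed more than 10 other WT/PEG pairs did among 55 and was kept as 2 libraries. Figures used matplotlib 3.10.9 in Python 3.11.15.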

Additional observations from a re-analysis of the deposited data

Results flagged for a closer look

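Among the 9 WT/NTZ libraries, the one numbered 99 stood apart for both gastric mucins, at 9455 CPM of Muc5ac (the others lay between 2242 and 4785 CPM) and at 427 CPM of Muc6 (the others lay between 112 and 234 CPM). The gap to the nearest library, divided by the range of the group, exceeded Dixon's 95% critical value for 9 samples for Muc5ac, for Muc6, and for the transcripts ENSMUST00000062451 (320 CPM) and ENSMUST00000155534 (7348 CPM). Chance alone flags about 1 group in 20, and these 4 values come from 1 library. With single libraries left out, the log2 difference between WT/NTZ and WT/PEG ranged from -0.43 to -0.09 for Muc5ac and from -0.35 to -0.02 for Muc6, and neither was called.

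The NTZ effect on Muc5b differed between the genotypes, by -2.40 on the log2 scale for the gene (edgeR interaction contrast, adjusted p = 0.0254) and by -2.37 for its transcript ENSMUST00000165147 (edgeR, adjusted p = 0.044). For the gene the call was lost without the WT/NTZ library with the highest Muc5b level (-2.27, edgeR, adjusted p = 0.0672). Muc5b was lower in 11 of 11 KO/NTZ libraries than the KO/PEG median, and above the WT/PEG median in 8 of 9 WT/NTZ libraries, at levels where a WT library held 1 to 16 counts.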

How the results depend on the processing

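No paired analysis was possible because the groups compared share fewer than 2 library numbers. Of the 18 differences of Muc5ac, Muc5b and Muc6, 17 kept their side of the threshold under every alternative run in which the gene was tested, and 16 kept their sign. The exceptions in sign were both of Muc5ac. Muc5b did not pass the filter in the fit of the WT groups alone. The exception in call was the difference of the NTZ effects on Muc5b (-2.40), which ranged from -2.58 to -2.23 with single libraries left out and was lost without the WT/NTZ library with the highest Muc5b level (-2.27, edgeR, adjusted p = 0.0672, over these settings 0.0137 to 0.0672). Between KO/NTZ and KO/PEG the Muc5ac value of -0.06 became 0.03 with limma-trend and ranged from -0.33 to 0.24 with single libraries left out, turning positive without each of 3 KO/PEG libraries (numbers 45 and 52 and the one with the highest Muc5ac count) and 3 KO/NTZ libraries (24, 29 and 37). Its difference of the NTZ effects (0.11) became -0.06 with only KO libraries numbered below 100 and ranged from -0.16 to 0.42 with single libraries left out, turning negative without each of the KO/PEG library with the lowest Muc5ac level and the KO/NTZ libraries 25 and 36. The Muc6 difference between KO/PEG and WT/PEG, 3.87, was 3.03 in that subset. The Muc6 difference between KO/NTZ and KO/PEG, 0.49, was 1.38 there and 1.08 with limma-trend, and was called in neither. The cause was not tested. Single transcripts of opposite sign to their gene were ENSMUST00000062451 and ENSMUST00000155534 between the KO groups (gene sums 0.49 and -0.06), ENSMUST00000163321 and ENSMUST00000189314 between the WT groups (gene sums -0.18 and -0.11), and ENSMUST00000163321 in the difference of the NTZ effects (gene sum 0.11), none of them called. In WT libraries r turned negative for Ldhd with Muc5ac (-0.02) and for Hk2 (-0.20), Slc16a6 (-0.26) and Mmp12 (-0.03) with Muc5b. Choices added after seeing the data were the subsets by library number for the other comparisons, leaving out single libraries for the difference of the NTZ effects, and the Muc2 fit without a filter. Depth limits Muc2 in all groups and Muc5b in WT mice.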
